A study of Mus musculus with 8 samples.

Results

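The insulin-like growth factor (IGF) family was examined in cells sorted from the mouse growth plate, the cartilage disc at which long bones lengthen. The family was taken as 10 genes by symbol: the ligands *Igf1* and *Igf2*, the receptors *Igf1r* and *Igf2r*, and the binding proteins *Igfbp2* to *Igfbp7*. All 10 were among the 16536 genes of the deposited count table, and all 10 were among the 15421 genes that passed the filter on low counts and were tested. The cells came from Pthrp-mCherry mice, in which mCherry reports expression of the PTHrP gene (*Pthlh*), and were collected by flow cytometry as mCherry+CD73+ cells, which the study takes as epiphyseal skeletal stem cells. One group of 4 mice received SAG, an agonist of Smoothened that activates Hedgehog (Hh) signaling, by i.p. injection at 25 μg/g body weight once a day. The other group of 4 mice received DMSO, the vehicle. Both groups carried the same reporter, were injected from postnatal day 30 to day 36 (the study's methods place the injections a day later) and were sacrificed at day 38. Each library was made from the sorted cells of both femoral growth plates of 1 mouse. The study used male and female mice, and the labels do not give the sex of each mouse.

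IGF-1 and IGF-2 are small secreted proteins related to insulin that promote growth. Both signal through IGF1R, a tyrosine kinase receptor that acts through the IRS adaptors, PI3K and Akt, whereas IGF2R, the cation-independent mannose 6-phosphate receptor, takes up IGF-2 and carries it to lysosomes. The IGF-binding proteins hold the ligands outside the cell and are cut by proteases such as PAPP-A and PAPP-A2, and in the growth plate the system works downstream of growth hormone.

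The libraries held between 24971992 and 46593090 counts, and levels are given as CPM, the counts of a gene relative to its library's total after TMM scaling. A floor of 3 counts lay at 0.0644 to 0.120 CPM and covers counting error only. DMSO replicate 4 stood apart, with the fewest counts and 14416 genes detected against 15524 or more in the other libraries. The label of the cells was checked against marker lists. The summed CPM of 16 chondrocyte markers, which include *Col2a1* and *Acan*, was 111140, 97629, 83974 and 47888 in DMSO replicates 1 to 4 and 51296, 19143, 45913 and 53385 in SAG replicates 1 to 4. *Pthlh* was found at 14.9 to 22.1 CPM in the DMSO group and at 18.4 to 29.9 CPM in the SAG group, and *Nt5e*, the gene of CD73, at 184 to 270 CPM and 149 to 174 CPM. The summed CPM of 15 neutrophil markers was 5401 to 15320 in the DMSO group and 29047 to 46173 in the SAG group, with no overlap. Of the 15, 11 were called higher, where 2.62% of all genes tested were called higher and 0.266% lower. The groups were also apart in the summed CPM of 6 hypertrophic chondrocyte markers, at 539 to 1291 in the DMSO group and 243 to 379 in the SAG group, with 2 of the 6 called lower, and in that of 9 B-lineage markers, at 78.8 to 352 and 17.9 to 38.4, with 3 of the 8 tested called lower. The summed CPM of 7 erythroid markers was 1000 to 9019 in the DMSO group and 482 to 5294 in the SAG group. Markers of neutrophils, B-lineage and erythroid cells were thus found in every library, so the libraries did not hold chondrocyte markers alone. The source of these transcripts was not tested. In sorted bulk cells a higher or lower share of a cell type and more or less RNA per cell cannot be told apart.

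Upstream sequences are shown for *Igf1r*, the only member whose groups did not overlap, and for *Igfbp3*, whose window held 3 copies of the core of the Gli binding motif, more than any other single window of a member, Gli being the transcription factors of the Hh pathway. The sequences are the 250 bases before the RefSeq start (GRCm38.p6), at chr7:67952007-67952256 on the plus strand for *Igf1r* and at chr11:7213924-7214173 on the minus strand for *Igfbp3*. They are written 5′ to 3′, and capitals mark CCACCC, the core of the Gli consensus, in either orientation (GGGTGG on the other strand).
Igf1r: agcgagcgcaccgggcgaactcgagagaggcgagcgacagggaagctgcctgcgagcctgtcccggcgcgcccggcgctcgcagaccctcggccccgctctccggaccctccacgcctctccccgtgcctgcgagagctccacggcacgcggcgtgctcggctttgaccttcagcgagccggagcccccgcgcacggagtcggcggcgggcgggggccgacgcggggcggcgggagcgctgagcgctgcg
Igfbp3: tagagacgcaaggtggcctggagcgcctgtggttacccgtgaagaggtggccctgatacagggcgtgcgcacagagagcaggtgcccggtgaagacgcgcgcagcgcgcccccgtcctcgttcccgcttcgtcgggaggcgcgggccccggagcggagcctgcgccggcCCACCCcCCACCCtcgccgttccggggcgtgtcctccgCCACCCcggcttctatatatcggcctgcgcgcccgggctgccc
The *Igf1r* stretch held 0 copies of the core and was 77.6% G or C, and the *Igfbp3* stretch held 3 copies and was 73.2% G or C. RefSeq windows of 300 bases, from 250 before to 50 after a start, matched all 10 members and gave 14 windows, 4 of them for *Igf2* and 2 for *Igfbp2*. The full consensus GACCACCCA (TGGGTGGTC on the other strand) was in 0 of the 14 windows and in 0.253% of 32851 promoter windows of the same length. The core, which lies within that consensus, was in 7 of the 14 windows, belonging to 5 of the 10 members, and in 31.5% of all promoter windows. TATAAA, read on the strand of the gene, was in 1 window, that of *Igfbp4*, and in 8.32% of all. A match of letters is not a binding site, and the matches were not compared with the members' responses to SAG.

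None of the 10 members was called between the groups (quasi-likelihood test of edgeR with Benjamini-Hochberg adjustment, threshold 0.05), where 2.89% of all genes tested were called, 2.62% as higher and 0.266% as lower. At an unadjusted p under 0.05, 1 member passed, the type 1 receptor *Igf1r*, as did 16.1% of all genes tested, 9.58% in the higher direction and 6.50% in the lower. With DESeq2, 0 members had an adjusted p under 0.05, as had 9.95% of all genes with an adjusted p, and 1 an unadjusted p under 0.05, as had 18.3% of all genes. With limma voom the numbers were 0 members beside 9.03% of all genes and 2 members, *Igf1r* and *Igf2r*, beside 23.6%. In *Igf1r* all SAG-treated mice lay above all DMSO-treated mice, a pattern seen in 7.90% of all genes tested, while the groups of the other 9 members overlapped. The fitted change was positive in 5 members and negative in 5, and the median log2 fold change of the 10 was −0.13, beside −0.08 over all genes tested.

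**Figure D1:**
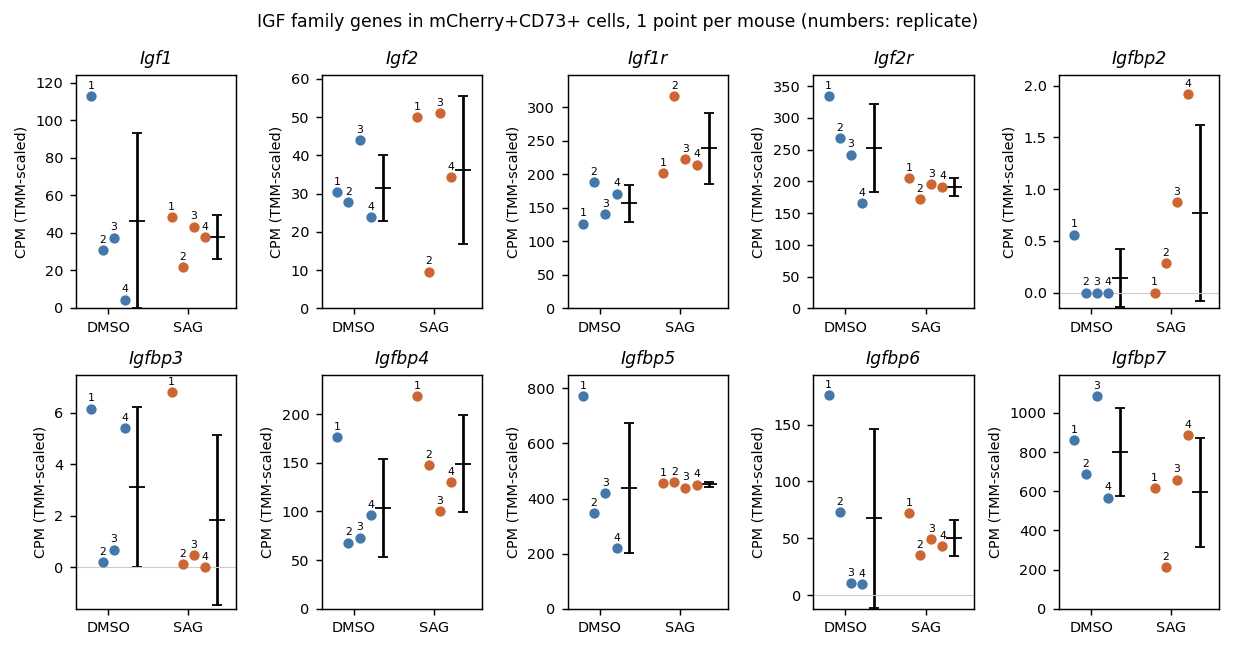
CPM of each of the 10 genes in each mouse (y axis, linear, reaching below 0 only where an SD bar does; 4 DMSO and 4 SAG mice, points labelled by replicate number), with the mean and SD of each group as a black marker and bar. *Igf1r* is the only panel in which the groups do not overlap, and DMSO replicate 1 is the highest DMSO point in 7 panels.

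*Igf1*, the ligand through which growth hormone acts in many tissues, lies at chromosome 10, 87858265 to 87937042, on the plus strand of GRCm38. Its level was 113.0, 30.6, 37.4 and 4.33 CPM in DMSO replicates 1 to 4 and 48.5, 21.5, 43.2 and 37.6 CPM in SAG replicates 1 to 4. DMSO replicate 1 was the highest and DMSO replicate 4 the lowest of all 8 mice, 26.1-fold apart, and all SAG-treated mice lay between them. The means were 46.3 ± 46.7 and 37.7 ± 11.7 CPM (SD, n = 4 each), and the log2 fold change was −0.30 ± 0.67 (SE; 95% interval −1.77 to 1.17; edgeR, adjusted p = 0.891). Without DMSO replicate 4 it was −0.65, and without DMSO replicate 1 it was 0.65, so leaving out DMSO replicate 1 turned the sign.

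*Igf2*, an imprinted gene best known as a fetal growth factor, lies at chromosome 7, 142650766 to 142666816, on the minus strand. Its level was 30.3, 27.9, 43.9 and 23.9 CPM in the DMSO group and 49.9, 9.60, 51.1 and 34.4 CPM in the SAG group. Here the widest gap was within the SAG group, where replicate 2 was 5.32-fold below replicate 3 and below every DMSO-treated mouse. The log2 fold change was 0.20 ± 0.44 (SE; 95% interval −0.76 to 1.16; edgeR, adjusted p = 0.887), and without SAG replicate 2 it was 0.52. In GENCODE the gene lies on the same strand as the protein-coding gene *Gm49394*, which spans nearly all of it and has no column in the table, and how reads were divided between them is not given in the sources used here.

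The share of *Igf1* in the sum of both ligands, each taken as CPM per kb of exon, was 68.3%, 38.8%, 33.0% and 9.47% in DMSO replicates 1 to 4 and 35.9%, 56.4%, 32.8% and 38.8% in SAG replicates 1 to 4. *Igf2* was therefore the larger of the ligands in 3 DMSO and 3 SAG mice, and the SAG range lay within the DMSO range.

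*Igf1r*, the signaling receptor of both ligands, lies at chromosome 7, 67952827 to 68233668, on the plus strand. Its level was 126.7, 188.4, 140.9 and 171.1 CPM in DMSO replicates 1 to 4 and 202.0, 317.1, 222.2 and 214.4 CPM in SAG replicates 1 to 4. The lowest SAG-treated mouse, replicate 1, lay above the highest DMSO-treated mouse, replicate 2, by less than the spread within either group, and SAG replicate 2 was well above the rest. The means were 156.8 ± 28.1 and 239.0 ± 52.8 CPM (SD, n = 4 each), a 1.52-fold difference with a log2 fold change of 0.61 ± 0.20 (SE; 95% interval 0.16 to 1.06; edgeR, unadjusted p = 0.0121, adjusted p = 0.149). The change was positive in every alternative fit, between 0.44 without SAG replicate 2 and 0.71 without DMSO replicate 2 among those that left out 1 mouse, with adjusted p between 0.0718 and 0.405. The mouse with the highest *Igf1r*, SAG replicate 2, also had the lowest chondrocyte and the highest neutrophil marker sum of the 8, and whether these shares bear on the receptor's level was not tested.

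*Igf2r*, the receptor that clears IGF-2 and sorts lysosomal enzymes, lies at chromosome 17, 12682406 to 12769664, on the minus strand. Its level was 334.8, 268.1, 242.2 and 165.8 CPM in the DMSO group and 205.8, 172.1, 196.2 and 192.0 CPM in the SAG group. In 3 DMSO mice it was above every SAG-treated mouse, but DMSO replicate 4 was the lowest of all 8. The means were 252.7 ± 69.9 and 191.5 ± 14.2 CPM (SD, n = 4 each), and the log2 fold change was −0.40 ± 0.21 (SE; 95% interval −0.86 to 0.06; edgeR, adjusted p = 0.399). Without DMSO replicate 4 it was −0.53 (adjusted p = 0.0791).

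Because the receptors leaned in opposite directions, the ratio of *Igf1r* to *Igf2r* (CPM per kb) was taken in each mouse, after their values had been seen. It was 0.210, 0.390, 0.322 and 0.572 in DMSO replicates 1 to 4 and 0.544, 1.02, 0.628 and 0.619 in SAG replicates 1 to 4, with means of 0.373 ± 0.152 and 0.703 ± 0.216 (SD). DMSO replicate 4 lay above SAG replicate 1, and no other pair of mice from the 2 groups crossed. The ratio is given as a description, without a test.

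*Igfbp7*, a secreted protein that is related to the IGF-binding proteins and binds IGFs only weakly, lies at chromosome 5, 77349240 to 77408041, on the minus strand. It was at 862.9, 687.0, 1086 and 568.2 CPM in the DMSO group and 615.0, 214.5, 659.9 and 887.6 CPM in the SAG group. SAG replicate 2 was 4.14-fold below SAG replicate 4 and below all other mice, and the remaining values were interleaved. The log2 fold change was −0.43 ± 0.36 (SE; 95% interval −1.22 to 0.36; edgeR, adjusted p = 0.642), and without SAG replicate 2 it was −0.15.

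*Igfbp5*, a binding protein with affinity for extracellular matrix and hydroxyapatite, lies at chromosome 1, 72857932 to 72874884, on the minus strand. Its level was 771.8, 346.0, 419.6 and 219.7 CPM in the DMSO group and 455.9, 460.6, 439.5 and 450.9 CPM in the SAG group. The 4 SAG-treated mice were within 1.05-fold of each other, while the DMSO-treated mice, which lay on both sides of them, spanned 3.51-fold. The means were 439 ± 237 and 452 ± 9.07 CPM (SD, n = 4 each), and the log2 fold change was 0.04 ± 0.31 (SE; 95% interval −0.64 to 0.72; edgeR, adjusted p = 0.970).

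*Igfbp4*, a binding protein whose main known protease is PAPP-A, lies at chromosome 11, 99041244 to 99054392, on the plus strand. Its level was 176.8, 68.0, 73.1 and 96.1 CPM in the DMSO group and 218.6, 147.6, 100.7 and 130.4 CPM in the SAG group. All SAG-treated mice were above 3 of the DMSO-treated mice, and DMSO replicate 1 was above 3 of the SAG-treated mice. The log2 fold change was 0.53 ± 0.33 (SE; 95% interval −0.19 to 1.25; edgeR, adjusted p = 0.490), and without DMSO replicate 1 it was 0.92 (adjusted p = 0.151).

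*Igfbp6*, a binding protein that prefers IGF-2, lies at chromosome 15, 102144362 to 102149511, on the plus strand. Its level was 176.1, 73.0, 10.7 and 9.64 CPM in the DMSO group and 72.5, 34.9, 49.6 and 43.2 CPM in the SAG group. As with *Igf1*, the DMSO-treated mice were on both sides of the SAG group and spanned 18.3-fold, against 2.07-fold in the SAG group. The log2 fold change was −0.43 ± 0.74 (SE; 95% interval −2.06 to 1.20; edgeR, adjusted p = 0.855), and without DMSO replicate 1 it was 0.69.

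*Igfbp3*, the main IGF carrier in blood, and *Igfbp2*, a binding protein prominent in the fetus, ranged from 0 or few counts in some mice to well above the floor in others and are given as counts. *Igfbp3* (chromosome 11, 7206086 to 7213923, minus strand) had 264, 9, 23 and 142 counts in DMSO replicates 1 to 4 and 236, 5, 19 and 0 counts in SAG replicates 1 to 4. *Igfbp2* (chromosome 1, 72824503 to 72852474, plus strand, directly beside *Igfbp5*) had 24, 0, 0 and 0 counts in the DMSO group and 0, 12, 35 and 84 counts in the SAG group. The groups of both genes overlapped, and the intervals were wide, with log2 fold changes of −0.75 (95% interval −4.33 to 2.82; edgeR, adjusted p = 0.887) for *Igfbp3* and 2.41 (95% interval −2.04 to 6.85; edgeR, adjusted p = 0.643) for *Igfbp2*. These fitted values depend on the handling of counts of 0 and are no measure of size.

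**Figure D2:**
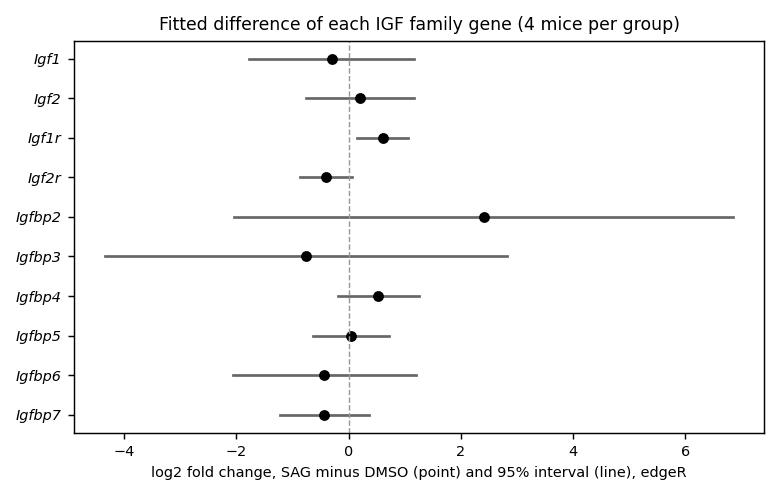
Fitted log2 fold change, SAG minus DMSO, of the 10 genes (points) with 95% intervals (lines) from edgeR's quasi-likelihood fit to 4 mice per group, on an axis in log2 units with a dashed line at 0. The interval of *Igf1r*, 0.16 to 1.06, is the only one that does not cross 0, and those of *Igfbp2* and *Igfbp3* are the widest.

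To set the members against each other, counts were divided by the length of the union of each gene's exons in GENCODE M21. Over the 8 mice the mean level in CPM per kb was 577 for *Igfbp7*, 74.2 for *Igfbp5*, 52.8 for *Igfbp6*, 28.6 for *Igfbp4*, 23.9 for *Igf2r*, 11.8 for *Igf1r*, 5.92 for *Igf2*, 4.24 for *Igf1*, 0.791 for *Igfbp3* and 0.246 for *Igfbp2*. The order was the same within each group except that *Igf2r* was above *Igfbp4* in the DMSO group, at 27.2 and 23.4 CPM per kb, and below it in the SAG group, at 20.6 and 33.8. *Igfbp7* was above *Igfbp5* in 8 of 8 mice, and this was the only pair of neighbours in the order whose ranges did not overlap. *Igf1r* was above *Igf2* in 8 of 8 mice and *Igf2r* above *Igf1r* in 7 of 8, whereas *Igfbp6* was above *Igfbp4* in 5 of 8 and *Igfbp3* above *Igfbp2* in 5 of 8, so that the order within these last pairs was not settled by these mice.

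Among the binding proteins *Igfbp7* made up 68.4%, 80.4%, 90.3% and 87.2% of the summed level (CPM per kb) in DMSO replicates 1 to 4 and 72.5%, 55.6%, 79.5% and 83.6% in SAG replicates 1 to 4. It held the largest share in every mouse, and the groups overlapped. *Igfbp5* followed with 8.57 ± 2.57% and 13.5 ± 7.09% (mean ± SD of the DMSO and the SAG group), of which SAG replicate 2 alone had 24.0%. The share of *Igfbp4* was 2.93 ± 1.19% and 6.05 ± 3.43%, and that of *Igfbp6* was 6.76 ± 6.77% and 7.51 ± 2.53%, with overlap of the groups in both. The summed binding-protein level was 88.7 ± 22.2 times the summed ligand level in the DMSO group and 68.9 ± 20.2 times in the SAG group, also with overlap. Most of that summed level was *Igfbp7*, which binds IGFs only weakly.

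**Figure D3:**
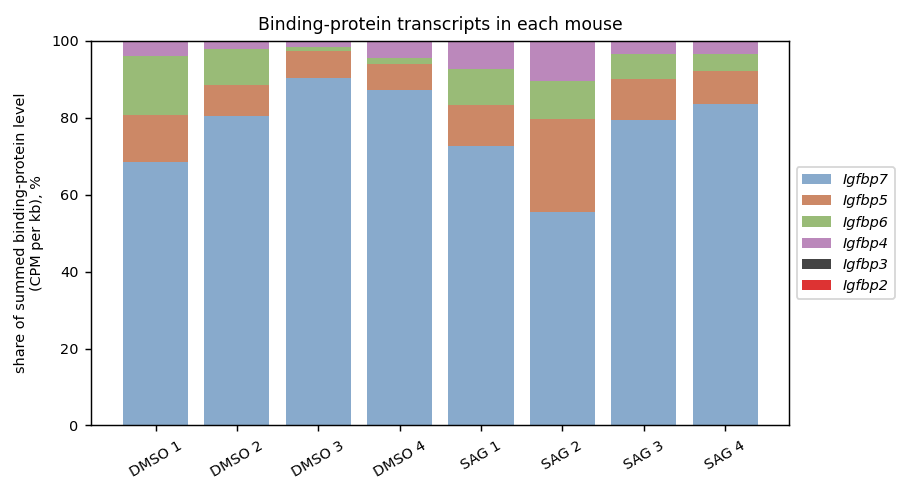
Share of each binding protein in the summed binding-protein level of each mouse (y axis, percent of summed CPM per kb of exon; stacked bars, 1 bar per mouse). *Igfbp7* fills between 55.6% and 90.3% of each bar, and the shares of *Igfbp2* and *Igfbp3* are too small to be seen.

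The spread among mice differed from member to member. The SD of log2 CPM was 1.95 in the DMSO group and 0.52 in the SAG group for *Igf1*, 2.07 and 0.44 for *Igfbp6* and 0.75 and 0.03 for *Igfbp5*, but it ran the other way for *Igf2*, with 0.37 and 1.13, and for *Igfbp7*, with 0.40 and 0.89. In 5 of the 10 members the DMSO group was the wider one, compared with 69.2% of all genes tested, for which the median SD was 0.68 in the DMSO group and 0.47 in the SAG group. DMSO replicate 1 was the highest DMSO-treated mouse in 7 members, as in 25.5% of all genes tested, and DMSO replicate 4 the lowest in 6, as in 38.5%. The summed CPM of 8 osteoblast markers, which include *Col1a1* and *Bglap*, was 10143 in DMSO replicate 1 and 1912 to 4331 in the other 7 mice. In DMSO replicate 1, *Col1a1* was at 5971 and *Col1a2* at 2760 CPM. *Ibsp* was higher in DMSO replicate 3 (1856 CPM), SAG replicate 4 (1774 CPM) and DMSO replicate 4 (1447 CPM) than in DMSO replicate 1 (1234 CPM). *Sp7* was higher in DMSO replicate 2 (43.1 against 31.8 CPM), and the rest of the list was highest in DMSO replicate 1. The chondrocyte sum and the hypertrophic chondrocyte sum were likewise highest of all 8 mice in DMSO replicate 1. The summed CPM of 7 erythroid markers was 9019 in DMSO replicate 4 and 482 to 5294 in the others. The part of these cells in the spread of *Igf1*, *Igfbp5* and *Igfbp6* was not tested.

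All genes of a library share 1 total, so the markers that differed between the groups enter every CPM value. All 16 chondrocyte markers had negative fitted changes, with a median log2 fold change of −0.99. In edgeR 0 of the 16 had an adjusted p under 0.05 and 15 an unadjusted p under 0.05, while DESeq2 called 6 and voom 10 of them lower. Of all genes, 6.50% had an unadjusted p under 0.05 in the lower direction in edgeR. DESeq2 called 9.95% and voom 9.03% of all genes in either direction. The members were therefore also expressed per 1000 summed chondrocyte marker counts of the same mouse, a scale chosen after the counts had been seen. On this scale *Igf1r* was at 1.14 to 3.57 in the DMSO group and 3.94 to 16.6 in the SAG group, *Igf2r* at 2.75 to 3.46 and 3.60 to 8.99, *Igfbp4* at 0.696 to 2.01 and 2.19 to 7.71, and *Igfbp5* at 3.54 to 6.94 and 8.45 to 24.1. These 4 members did not overlap and were higher in the SAG group, 0 were lower, and the same holds for 20.8% of all genes tested in the higher and 0.0778% in the lower direction. *Igfbp7* was at 7.04 to 12.9 and 11.2 to 16.6, and *Igf2* at 0.273 to 0.523 and 0.502 to 1.11, both with overlap, and SAG replicate 2, which had the lowest CPM of both genes, lay within the range of the other mice for both. When edgeR's library sizes were set by the chondrocyte markers, the median log2 fold change of all genes tested moved to 1.05, that of *Igf1r* was 1.82 ± 0.60 (SE; adjusted p = 0.0679) and that of *Igf2r* was 0.79 ± 0.48 (SE; adjusted p = 0.254). *Igf1r* lay above and *Igf2r* below the median of all genes tested on both scales.

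**Figure D4:**
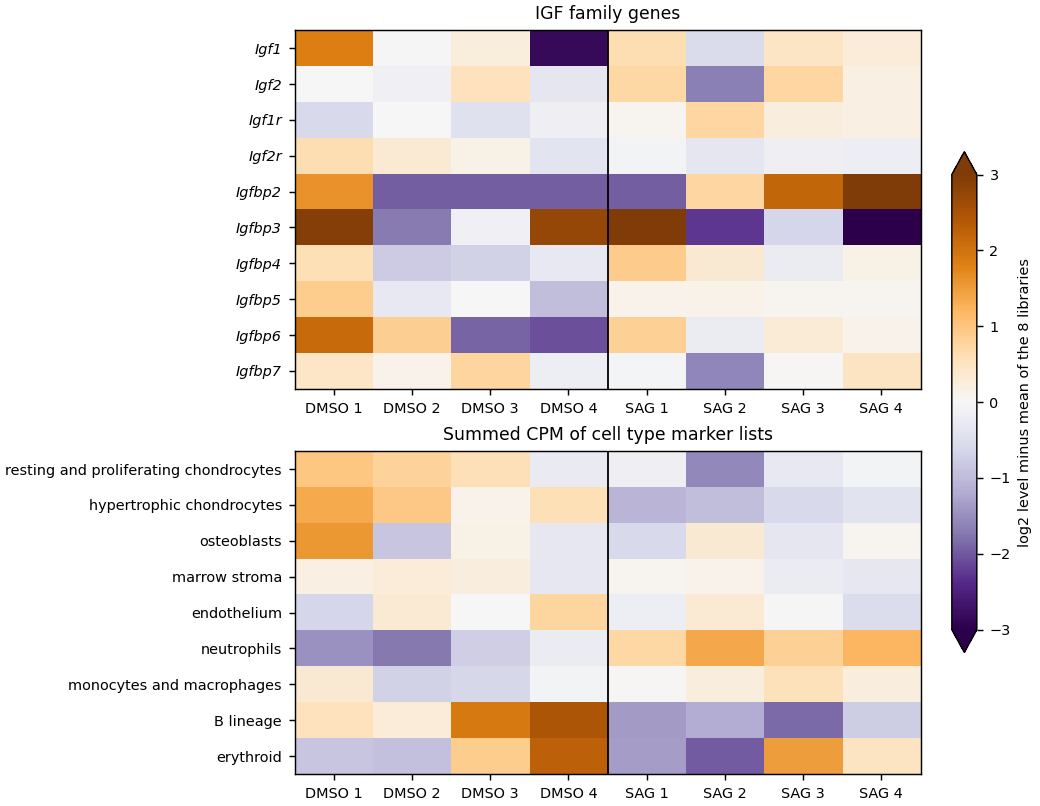
Log2 level of each IGF family gene (upper map) and log2 summed CPM of each marker list (lower map) in each mouse, as the difference from the row's mean over the 8 mice (color, log2 units, limited to 3 on either side); the vertical line separates the 4 DMSO from the 4 SAG mice. *Igf1* and *Igfbp6* are highest in DMSO replicate 1, where the osteoblast list and both chondrocyte lists are also highest, and *Igf2* and *Igfbp7* are lowest in SAG replicate 2, where the chondrocyte list is also lowest.

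The other genes of the pathway were taken from 8 lists with 72 genes, of which 67 were in the table and tested. At an adjusted p under 0.05, 2 of the 67 were higher and 2 were lower, 2.99% in each direction, beside 2.62% and 0.266% of all genes tested. By number, DESeq2 called 9 of the pathway genes to which it gave an adjusted p, and voom called 16 of the 67. As shares over all genes with an adjusted p, DESeq2 called 9.95% and voom 9.03%. The shares of all genes given here also stand beside the counts of each list below. Of the 67, 6 were higher and 4 lower without overlap of the groups, beside 7.90% and 3.84% of all genes tested. The fitted change was positive in 32 and negative in 35, and their median log2 fold change was −0.08, as for all genes tested.

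Of the 4 tested relatives of the family (insulin receptor genes and other carriers), 0 were called by edgeR or DESeq2 and 1, *Insr*, by voom, 1 had an unadjusted p under 0.05 in edgeR, and the median log2 fold change was −0.48. *Igfals*, which forms the large circulating IGF complex, had −1.58 ± 1.49 (SE; edgeR, adjusted p = 0.691), and *Insrr*, an insulin receptor-related receptor, −0.93 ± 0.71 (SE; edgeR, adjusted p = 0.600). *Insr*, the insulin receptor, which forms hybrids with IGF1R, was looked up after its values were seen and was at 62.3, 52.1, 47.7 and 115.1 CPM in the DMSO group and 109.0, 117.3, 88.9 and 115.4 CPM in the SAG group. Here DMSO replicate 4 lay among the SAG-treated mice, and the log2 fold change of 0.64 ± 0.28 (SE; edgeR, adjusted p = 0.277) did not pass. Without DMSO replicate 4 it was 1.02 (edgeR, adjusted p = 0.00668), and with voom it was 0.92 (adjusted p = 0.0137). That was the largest change among the 8 fits that left out 1 mouse, which ranged from 0.46 to 1.02. Without DMSO replicate 1, 2 or 3, *Insr* was not called (edgeR, adjusted p = 0.444, 0.500 and 0.530). DESeq2 did not call it either (adjusted p = 0.250).

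Of 8 genes for proteases of the binding proteins and inhibitors of these proteases, 7 had a negative fitted change. Their median was −0.77 on the log2 scale, beside −0.08 over all genes tested. In this list 1 gene was called by edgeR, against 2 each with DESeq2 and voom, beside 2.89%, 9.95% and 9.03% of all genes. *Pappa2*, a protease that cuts IGFBP-3 and IGFBP-5, was lower, at 275.2, 301.8, 219.4 and 82.3 CPM in the DMSO group and 107.3, 40.2, 45.4 and 46.3 CPM in the SAG group (log2 fold change −1.88 ± 0.42, SE; edgeR, adjusted p = 0.0363). The groups overlapped at 1 point, since DMSO replicate 4 was below SAG replicate 1. The call was lost in 6 of the 8 fits that left out 1 mouse, where adjusted p was between 0.00252 and 0.129, and with library sizes set by the chondrocyte markers, where the log2 fold change was −0.70 (adjusted p = 0.309). *Stc2*, whose product inhibits PAPP-A, was chosen after its values were seen. It was lower in all SAG-treated mice than in any DMSO-treated mouse, at 5.77 to 20.8 and 22.9 to 58.9 CPM, with a log2 fold change of −1.60 ± 0.44 (SE; edgeR, adjusted p = 0.0805). It was called with DESeq2 (adjusted p = 0.00826), with voom (adjusted p = 0.0104) and by edgeR without DMSO replicate 4 (adjusted p = 0.0254). *Stc2* was not called without DMSO replicate 1, 2 or 3 (edgeR, adjusted p = 0.178, 0.231 and 0.120). With library sizes set by the chondrocyte markers its log2 fold change was −0.58 (edgeR, adjusted p = 0.413).

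In the growth hormone axis 0 of 8 genes were called by edgeR and 1, *Socs1*, by DESeq2 and by voom, 1 had an unadjusted p under 0.05 in edgeR, and the median log2 fold change was −0.16. *Socs1* and *Socs2*, inhibitors of cytokine and growth hormone signaling, had −1.27 ± 0.41 (SE; edgeR, adjusted p = 0.138) and −0.74 ± 0.59 (SE; edgeR, adjusted p = 0.622), and the growth hormone receptor *Ghr*, named after its values were seen, had −0.54 ± 0.42 (SE; edgeR, adjusted p = 0.601). The groups overlapped in all of them.

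Of 10 receptor adaptors 1 was called by edgeR, against 1 with DESeq2 and 4 with voom. Of all genes, edgeR called 2.89%, DESeq2 9.95% and voom 9.03%. *Grb14*, an adaptor that binds activated insulin and IGF receptors and inhibits their kinase, was lower, at 25.2, 13.9, 14.5 and 17.7 CPM in the DMSO group and 2.99, 6.35, 5.31 and 5.43 CPM in the SAG group (log2 fold change −1.83 ± 0.41, SE; edgeR, adjusted p = 0.0363). The groups did not overlap, which was the case in the lower direction for 3.84% of all genes tested. The call was kept in 1 of the 8 fits that left out 1 mouse, with adjusted p between 0.0183 and 0.133, and was lost with library sizes set by the chondrocyte markers (log2 fold change −0.59, adjusted p = 0.537). *Irs1*, the adaptor through which both receptors reach PI3K, was chosen after its values were seen. Its means were 141.3 ± 23.5 and 78.5 ± 29.3 CPM (SD, n = 4 each), without overlap of the groups, and its log2 fold change of −0.85 ± 0.29 (SE; edgeR, adjusted p = 0.157) did not pass.

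Among 21 genes for PI3K, Akt and mTOR signaling, edgeR called 2 higher and 0 lower, and the median log2 fold change was 0.12. At an unadjusted p under 0.05 in edgeR, 5 were higher and 2 lower, beside 9.58% and 6.50% of all genes tested. DESeq2 called 3 and voom 6 of them, of which 3 and 5 were higher. Both genes called by edgeR encode catalytic subunits of PI3K. *Pik3cb*, the subunit p110β, was at 22.5, 18.9, 23.5 and 7.44 CPM in the DMSO group and 49.8, 77.6, 42.8 and 58.5 CPM in the SAG group (log2 fold change 1.66 ± 0.36, SE; edgeR, adjusted p = 0.0324). *Pik3cg*, the subunit p110γ, known mainly from blood cells, was at 29.0, 27.8, 44.1 and 30.1 CPM in the DMSO group and 56.7, 124.0, 88.7 and 111.6 CPM in the SAG group (log2 fold change 1.54 ± 0.27, SE; edgeR, adjusted p = 0.0146). The groups of both genes were apart. With 1 mouse left out, *Pik3cb* was called in 1 and *Pik3cg* in 5 of 8 fits. The highest value of both was in SAG replicate 2, which had the highest neutrophil marker sum. Within the DMSO group that sum was highest in replicate 4, at 15320, where *Pik3cb* was at its lowest of all mice, 7.44 CPM. *Pik3cg* was highest of the DMSO group in replicate 3, at 44.1 CPM. In SAG replicates 1 to 4 the neutrophil sum was 29047, 46173, 31658 and 41033. *Pik3cg* had the same order in these mice, whereas *Pik3cb* was lowest of the SAG group in replicate 3, at 42.8 CPM. The part of neutrophils in the rise of both genes was not tested.

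In the 3 remaining lists edgeR called 0 of 16 genes, with 3 at an unadjusted p under 0.05, and DESeq2 (*Foxo1* and *Gga1*) and voom (*Foxo1* and *Igf2bp2*) called 2 each. *Foxo1*, a transcription factor that Akt keeps out of the nucleus, was at 94.1 to 132.3 CPM in the DMSO group and 32.3 to 80.6 CPM in the SAG group, without overlap (log2 fold change −1.06 ± 0.29, SE; edgeR, adjusted p = 0.0799), whereas its relative *Foxo6* had 0 counts in 2 DMSO libraries and a fitted log2 fold change of −0.57 (SE 1.71; edgeR, adjusted p = 0.921). With library sizes set by the chondrocyte markers the log2 fold change of *Foxo1* was −0.07 (edgeR, adjusted p = 0.924). The *Igf2* mRNA-binding proteins *Igf2bp2* and *Igf2bp1* had −1.21 ± 0.49 (SE; edgeR, adjusted p = 0.245) and −1.05 ± 1.12 (SE; edgeR, adjusted p = 0.736). In the mannose 6-phosphate pathway, which supplies cargo to IGF2R, the sorting adaptor *Gga1* was at 14.1 to 43.7 CPM in the DMSO group and 51.0 to 79.5 CPM in the SAG group, also without overlap (log2 fold change 1.02 ± 0.33, SE; edgeR, adjusted p = 0.139), and *Gnptg*, a subunit of the enzyme that starts the mannose 6-phosphate tag, had 0.45 ± 0.33 (SE; edgeR, adjusted p = 0.578).

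**Figure D5:**
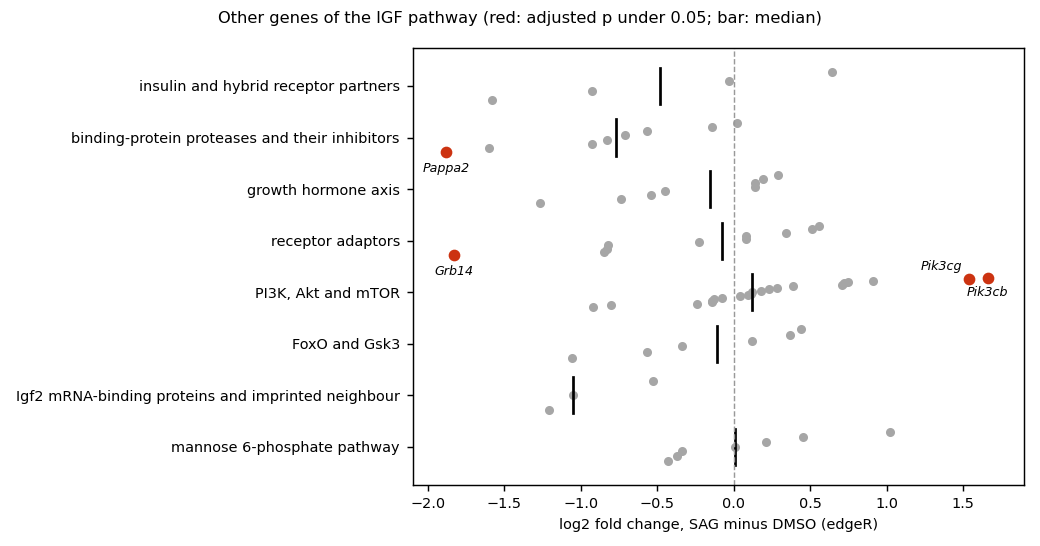
Log2 fold change, SAG minus DMSO, of the 67 tested genes of 8 pathway lists (x axis, log2 units; 1 point per gene, with a bar at each list's median and a dashed line at 0). The 4 genes with an adjusted p under 0.05 are red and named: *Pappa2* and *Grb14* at −1.88 and −1.83, and *Pik3cb* and *Pik3cg* at 1.66 and 1.54.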

How the data were processed

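RNA was extracted with the RNeasy micro kit and libraries were prepared with a SMARTer kit for stranded total RNA at picogram inputs. The authors deposited raw counts per gene and library without scaling, as whole numbers. The submitters' processing notes name kallisto, DESeq2 and GRCm38 without saying what each was used for; if kallisto made the counts, they are rounded estimates of reads shared among transcripts. The 8 rows of the table were matched to 4 DMSO and 4 SAG mice by their labels.

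The test was edgeR's (version 4.0.16, in R 4.3.3) quasi-likelihood test in its robust form, SAG against DMSO, on the 15421 genes left by filterByExpr. TMM factors were 0.941 to 1.06 and the common dispersion was 0.466. Genes were called at a Benjamini-Hochberg adjusted p under 0.05 over all genes tested. Fits were tested on simulated data. Log2 values used a prior count of 2. Levels of different genes were compared only as CPM per kb of exon union (GENCODE M21). Alternatives were DESeq2 1.42.0, limma 3.58.1 (voom with quality weights), other library sizes and filters, the longest transcript as length, a replicate block and each mouse left out in turn. The members and lists, and the scaling to chondrocyte markers, were chosen with earlier results of these data known. Named from each pathway list were the genes called, or otherwise the pair with the largest absolute log2 fold changes; for each member, the genes with the smallest root-mean-square difference of centred log2 CPM, among those with at least 10 CPM and an SD of at least 0.3. No pair of libraries within a group agreed within sampling noise. *Ins1*, *Ins2*, *Igfbp1*, *Igfbpl1* and *H19* were not analysed here.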

Additional observations from a re-analysis of the deposited data

Results flagged for a closer look

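In groups of 4 mice, 5 of 44 sets of values examined had 1 mouse separated from the rest beyond Dixon's 95% critical value, where about 2.2 would be flagged by chance, and several of the 44 rest on the same counts. *Igfbp2* was at 0.560 CPM in DMSO replicate 1 and at 0 in the other DMSO-treated mice, which gave it 0.029% of the summed binding-protein level in that mouse against 0 in the others. *Igfbp3* was at 6.78 CPM in SAG replicate 1 with the next highest SAG-treated mouse at 0.473 CPM, which gave it 0.309% of the binding-protein level against 0.0220%. The share of *Igfbp5* in the binding-protein level was 24.0% in SAG replicate 2 and at most 10.8% in the other SAG-treated mice, while its CPM in that mouse, 460.6, lay within 1.05-fold of theirs, and *Igfbp7* was at its lowest there with 214.5 CPM.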

How the results depend on the processing

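No IGF family gene was called in the reported fit or in any of its 16 alternatives, in which the smallest adjusted p was 0.0679. The count of all genes called higher and lower was 404 and 41, and moved to 812 and 413 with DESeq2, 995 and 398 with voom, and 614 and 2 with scaling to chondrocyte markers; the lower count was 87 with at least 10 counts in every library and 18 with a replicate block. With 1 mouse left out the counts were 80 to 1017 higher and 4 to 343 lower. Pathway genes called numbered 4, against 9 with DESeq2, 16 with voom, 2 with the block and 0 (without DMSO replicate 2, SAG replicate 2 or SAG replicate 4) to 12 (without DMSO replicate 4) with 1 mouse left out. Of all genes, the reported fit called 2.89%, DESeq2 9.95% and voom 9.03%. The causes were not tested. DESeq2 gave no adjusted p for *Igfbp2* and *Igfbp3*, and the filter of 10 counts removed both.

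The sign of the log2 fold change turned with voom for *Igf2* (−0.01), *Insrr* (0.07) and *Foxo6* (2.31), with plain library sizes for *Igfbp5* (−0.00436), and with scaling to chondrocyte markers for *Igf1* (0.99), *Igf2r* (0.79), *Igfbp6* (0.93), *Igfbp7* (0.47), *Socs2* (0.40), *Foxo6* (0.72), *Igf2bp2* (0.33), *Igf2bp1* (0.27), *Irs1* (0.07) and *Ghr* (0.27), where the median of all genes tested moved from −0.08 to 1.05. With 1 mouse left out the ranges were −0.65 to 0.65 for *Igf1*, −0.01 to 0.52 for *Igf2*, −0.15 to 0.46 for *Igfbp5* (−0.06 without DMSO replicate 2), −0.78 to 0.69 for *Igfbp6*, −2.08 to 0.41 for *Igfals*, −1.23 to 1.94 for *Foxo6* and −1.20 to 0.22 for *Insrr*, each with a change of sign, and 1.42 to 7.87 for *Igfbp2*, −3.96 to −0.18 for *Igfbp3*, 0.29 to 0.92 for *Igfbp4*, −0.53 to −0.23 for *Igf2r* and −0.69 to −0.15 for *Igfbp7* without one. With the longest transcript as length, *Igf1r* was at 13.7 and 20.9 CPM per kb in the DMSO and SAG groups in place of 9.34 and 14.2, *Igf1* in the SAG group was at 5.35 in place of 3.81, and the order of the 10 members over all mice was the same. The ratio of binding proteins to ligands was then 70.4 and 54.1 in the DMSO and SAG groups, in place of 88.7 and 68.9. That of *Igf1r* to *Igf2r* was 0.525 and 0.988, in place of 0.373 and 0.703.

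The labels do not say whether the replicate numbers pair the mice, and the reported fit did not pair them. The row labels of the counts number the mice in a running series over both groups, whereas the sample titles restart the numbers in each group. Deviations of same-numbered mice correlated at 0.12, 0.022, 0.019 and 0.01, and 4 of 8 libraries correlated best with their own number. With so few mice these values do not settle the point. With the number as a block, *Igf1* (0.26), *Igfbp6* (0.50) and *Foxo6* (2.82) changed sign, and *Grb14* (adjusted p = 0.115) and *Pik3cb* (adjusted p = 0.0659) were not called.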

Other observations

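For each member, the genes whose CPM followed it most closely over the 8 mice were sought among 7655 genes, by the root-mean-square difference of log2 CPM after centring each gene on its own mean. *Igf1r* was nearest to *Arrdc3* (0.09) and *Zfyve27* (0.11), *Igf2r* to *Klc1* (0.10) and *Itpr2* (0.10), *Igfbp7* to *Pam* (0.13) and *Cd109* (0.14), and *Igfbp5* to *Ube2g1* (0.14) and *Smurf1* (0.17). The distances were wider for *Igfbp4*, with *Atg16l1* (0.21) and *Pdpr* (0.30), for *Igf2*, with *Clu* (0.30) and *Tubb2a* (0.32), for *Igf1*, with *Kdelc2* (0.36) and *Ednrb* (0.36), and for *Igfbp6*, with *Tnxb* (0.38) and *Sfrp4* (0.42). The distance depends on a member's own spread, so it does not rank closeness between members. The SD of log2 CPM over the 8 mice was 1.34 for *Igf1*, 1.41 for *Igfbp6* and 0.50 for *Igfbp5*. *Igfbp3* (*Polr1e*, 1.58) and *Igfbp2* (*Aph1b*, 1.31), which had counts at or near 0 in several mice, had no close neighbour. All values share the same 8 libraries, so nearness over them is a description only.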
